A study of Mus musculus with 6 samples.

Results

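The genes described here encode 10 mouse enzymes of serine synthesis and folate metabolism. They were picked by name: Phgdh, Psat1 and Psph for serine synthesis, Shmt2, Mthfd2, Mthfd2l, Mthfd1l and Aldh1l2 for the mitochondrial folate arm, and Shmt1 and Mthfd1 for its cytosolic counterpart. Each name matched 1 of the 23203 loci of the deposited expression table. The list was drawn up with the values of the same 2DG and Vehicle libraries in view, so the differences given for these genes are a description and carry no test. The cells were naive mouse CD4 T cells cultured for 48 h on plate-bound anti-CD3e (10 µg/ml) and anti-CD28 (1 µg/ml). IL-23 (10 ng/ml), IL-6 (20 ng/ml) and TGFb1 (2.5 ng/ml) were present in both groups, a mix that turns them into Th17 cells, the helper T cells that make IL-17. The 2DG group received 250 µM 2-deoxyglucose, a glucose analogue used to inhibit glycolysis, and the Vehicle group received DMSO. Each group had 3 RNA-seq libraries, and the strain, age and number of animals were not given in the labels. The design asks how the transcriptome of Th17 cells differs when glycolysis is inhibited. The values used here hold no measure of glycolytic flux or of serine.

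Serine is made from 3-phosphoglycerate, an intermediate of glycolysis, by PHGDH, PSAT1 and PSPH in turn. Serine hydroxymethyltransferase passes a carbon from serine to tetrahydrofolate, which yields glycine. SHMT2 does this in mitochondria, where MTHFD2 or MTHFD2L and then MTHFD1L turn the folate-bound carbon into formate. SHMT1 and the trifunctional enzyme MTHFD1 carry the matching reactions in the cytosol, where formate feeds purine and thymidylate synthesis. Activated T cells are known to use serine and the mitochondrial folate arm as they divide, and in several cell types ATF4, a transcription factor of amino acid and mitochondrial stress, is known to drive many of these genes.

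Values are FPKM, fragments scaled by transcript length and by library size, which allows levels of different genes to be set side by side. No read counts were used, and the depth of each library is unknown. Judged roughly by the spacing of low values, 2DG replicate 1 was the deepest library, at 1.11 times Vehicle replicate 1, and Vehicle replicate 2 the shallowest, at 0.418 times. Rn45s, the ribosomal RNA precursor, set replicate 1 of either group apart from the rest, listed at 7186 FPKM in 2DG and 12874 FPKM in Vehicle and at 0 in the other 4 libraries. All 4 T cell markers and all 5 Th17 markers had a mean of at least 1 FPKM. The Th17 markers summed to 2350 to 3070 FPKM in 2DG libraries and to 1720 to 2000 FPKM in Vehicle libraries, without overlap, and the T cell markers to 443 to 563 FPKM in 2DG and 444 to 537 FPKM in Vehicle. The part of the Th17 level in the enzyme values was not tested. Markers of other cells were low: B cell markers (0 of 4 with a mean of at least 1 FPKM) summed to 0.0945 to 2.1 FPKM in 2DG and 0.62 to 3.71 FPKM in Vehicle. Myeloid markers (1 of 4) summed to 0.535 to 2.01 FPKM in 2DG and 0.329 to 2.59 FPKM in Vehicle, and CD8 T cell markers (1 of 2) to 2.91 to 5.51 FPKM in 2DG and 2.68 to 3.31 FPKM in Vehicle. NK cell markers (1 of 3, with Klrb1c at 0 throughout) summed to 0.596 to 1.38 FPKM in 2DG and 1.2 to 2.08 FPKM in Vehicle, and erythroid markers (0 of 3, with Hba-a1 and Hbb-b1 at 0 throughout) to at most 0.184 FPKM in 2DG and 0.256 FPKM in Vehicle. In bulk RNA a lower level can mean fewer expressing cells or less RNA per cell, and these cannot be told apart.

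All 3 serine synthesis genes were higher in every 2DG library than in any Vehicle library, as were 11.9% of all 10228 tested loci (those with a mean of at least 1 FPKM). Psph, the phosphatase of the last step (chromosome 5, 129765558 to 129787449, GRCm38), was at 75.2, 81.6 and 85.9 FPKM in 2DG libraries, against 62.1, 50.9 and 45 FPKM in Vehicle libraries. Its ratio of means was 1.54, and its log2 difference, 2DG minus Vehicle on the log2(FPKM + 1) scale, was 0.62 ± 0.12 (SE, n = 3 each). The groups were separated by a gap larger than the range of the 2DG libraries and smaller than the range of the Vehicle libraries. Psat1, the aminotransferase of the middle step (chromosome 19, 15904678 to 15947337), was at 243, 254 and 288 FPKM in 2DG libraries, against 204, 172 and 172 FPKM in Vehicle libraries. Its ratio of means was 1.43 and its log2 difference 0.51 ± 0.11 (SE). Phgdh, the dehydrogenase that takes 3-phosphoglycerate into the pathway (chromosome 3, 98313170 to 98339990), was the lowest of the 3 in level and in difference. It was at 45.9, 50.8 and 50.7 FPKM in 2DG libraries, against 43.2, 36.5 and 36.1 FPKM in Vehicle libraries, a ratio of means of 1.27 and a log2 difference of 0.34 ± 0.10 (SE). Its nearest libraries, 2DG replicate 1 and Vehicle replicate 1, differed by less than the spread within Vehicle. The ratio of means was smallest for the first step and largest for the last, and the difference between the 3 genes was not tested.

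**Figure D1:**
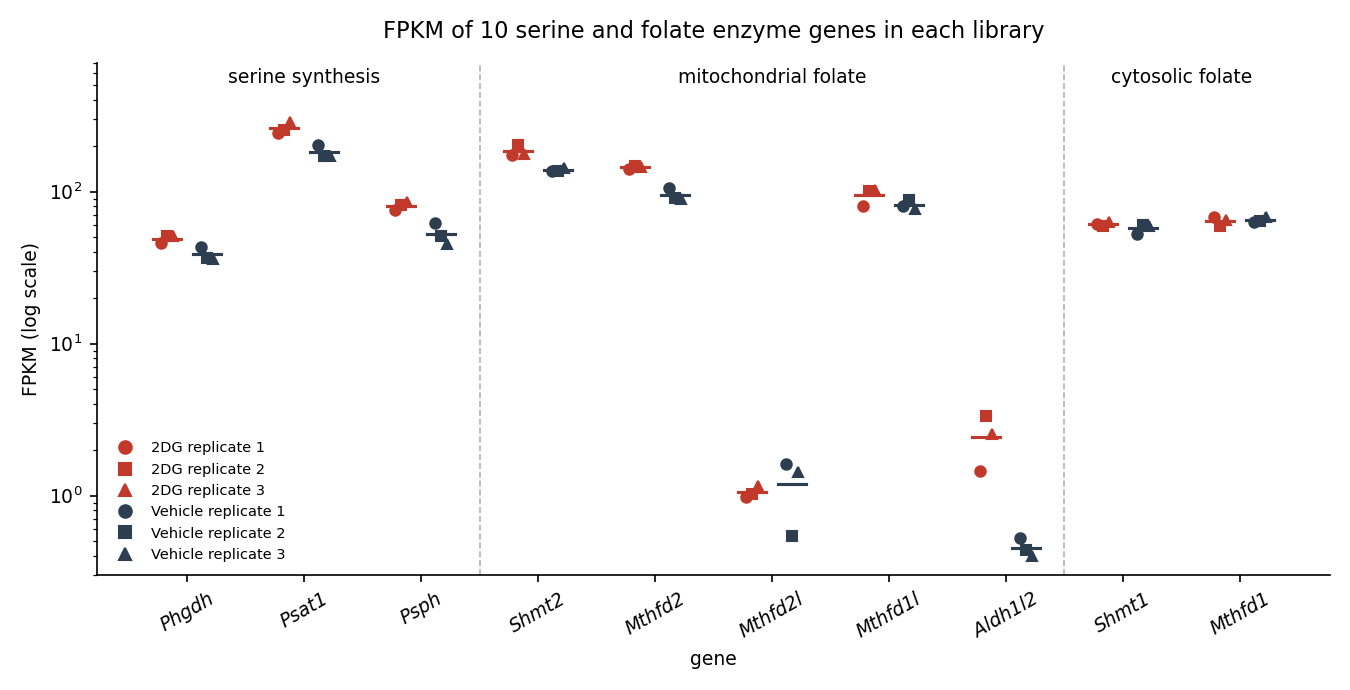
FPKM on a log axis for each of the 10 genes in each library, with 2DG in red left of Vehicle in dark blue; symbols mark the replicate and bars the group mean of 3 libraries. The serine synthesis genes, Shmt2, Mthfd2 and Aldh1l2 separate by group, whereas Shmt1 and Mthfd1 lie near 60 FPKM in both; Aldh1l2 and Mthfd2l lie far below the other 8.

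In the mitochondrial folate arm, Mthfd2, Shmt2 and Aldh1l2 were higher in every 2DG library, while Mthfd1l and Mthfd2l overlapped between groups. Mthfd2, the dehydrogenase and cyclohydrolase that T cells induce on activation (chromosome 6, 83305691 to 83325908), was at 141, 148 and 146 FPKM in 2DG libraries, against 106, 91.4 and 89.8 FPKM in Vehicle libraries. The 2DG libraries agreed closely, with a coefficient of variation of 2.47%, against 9.29% in Vehicle. The ratio of means was 1.51 and the log2 difference 0.60 ± 0.09 (SE, n = 3 each). Shmt2, which supplies the arm with carbon from serine (chromosome 10, 127517123 to 127522444), was at 175, 204 and 178 FPKM in 2DG libraries, against 137, 137 and 143 FPKM in Vehicle libraries. Its ratio of means was 1.34 and its log2 difference 0.41 ± 0.09 (SE). Here 2DG replicate 2 stood above the other two 2DG libraries, and the Vehicle libraries had a coefficient of variation of 2.67%.

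Mthfd1l, the last enzyme of the mitochondrial arm, which releases formate (chromosome 10, 3973118 to 4167081), was at 80.2, 101 and 103 FPKM in 2DG libraries, against 80.4, 88.1 and 77 FPKM in Vehicle libraries. 2DG replicate 1 lay inside the Vehicle range, and the log2 difference was 0.20 ± 0.11 (SE). It was 0.31 without 2DG replicate 1 and 0.14 to 0.25 without any other single library. Aldh1l2, the mitochondrial dehydrogenase that oxidizes formyl-tetrahydrofolate (chromosome 10, 83487450 to 83534140), had the largest ratio of the 10 genes at a low level. It was at 1.45, 3.32 and 2.55 FPKM in 2DG libraries, against 0.526, 0.438 and 0.400 FPKM in Vehicle libraries, a ratio of means of 5.36. The 2DG libraries varied among themselves (coefficient of variation 38.7%), and all 3 lay above the Vehicle range. Its log2 difference was 1.20 ± 0.22 (SE) with the pseudocount of 1 and 2.13 with 0.1, since a pseudocount understates the change of a low gene. Aldh1l2 passed the filter of a mean of at least 1 FPKM through its 2DG libraries alone. Mthfd2l, a relative of Mthfd2 in the same compartment (chromosome 5, 90931117 to 91021368), was at 0.973, 1.02 and 1.16 FPKM in 2DG libraries and at 1.61, 0.538 and 1.42 FPKM in Vehicle libraries. The 2DG values lay within the Vehicle range, and the authors gave this locus the status NOTEST.

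The cytosolic folate genes overlapped between groups. Shmt1 (chromosome 11, 60788104 to 60811718) was at 60.9, 59.7 and 62.7 FPKM in 2DG libraries, against 53.0, 60.1 and 59.4 FPKM in Vehicle libraries, a log2 difference of 0.09 ± 0.08 (SE, n = 3 each). Mthfd1 (chromosome 12, 76255298 to 76319803) was at 68.6, 59.1 and 65.2 FPKM in 2DG libraries, against 62.7, 64.4 and 68.6 FPKM in Vehicle libraries, a log2 difference of -0.02 ± 0.08 (SE). Both differences were about the size of their SE or smaller. With 1 library left out, that of Shmt1 was 0.03 to 0.12, lowest without Vehicle replicate 1, and that of Mthfd1 was -0.07 to 0.04, above 0 without 2DG replicate 2 or Vehicle replicate 3. These values do not show that the cytosolic genes stayed the same.

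The mitochondrial genes were compared with their cytosolic counterparts within each library, which removes any scaling shared by all genes of a library. The FPKM of Shmt2 was 2.88, 3.42 and 2.84 times that of Shmt1 in 2DG libraries, against 2.58, 2.28 and 2.42 times in Vehicle libraries. On the log2 scale this ratio averaged 1.6 ± 0.15 in 2DG and 1.28 ± 0.09 in Vehicle (SD, n = 3 each), a difference of 0.32 ± 0.10 (SE), and the groups did not overlap. The FPKM of Mthfd2 was 2.05, 2.50 and 2.25 times that of Mthfd1 in 2DG libraries, against 1.69, 1.42 and 1.31 times in Vehicle libraries. This ratio differed by 0.63 ± 0.14 on the log2 scale (SE), again without overlap. The ratio of Mthfd1l to Mthfd1 was 1.17, 1.70 and 1.58 in 2DG libraries and 1.28, 1.37 and 1.12 in Vehicle libraries, and the groups overlapped. The mean log2 FPKM of the 5 mitochondrial genes minus that of the 2 cytosolic genes was higher by 0.67 ± 0.20 in 2DG libraries (SE). With the 3 mitochondrial genes of at least 5 FPKM, an alternative chosen after seeing the data, which leaves out the low genes Aldh1l2 and Mthfd2l, the difference was 0.37. With all 5 and a pseudocount of 1 it was 0.44. Within the mitochondria, the FPKM of Mthfd2l was 0.00691, 0.00689 and 0.00790 of that of Mthfd2 in 2DG libraries, against 0.0152, 0.00589 and 0.0158 in Vehicle libraries.

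**Figure D2:**
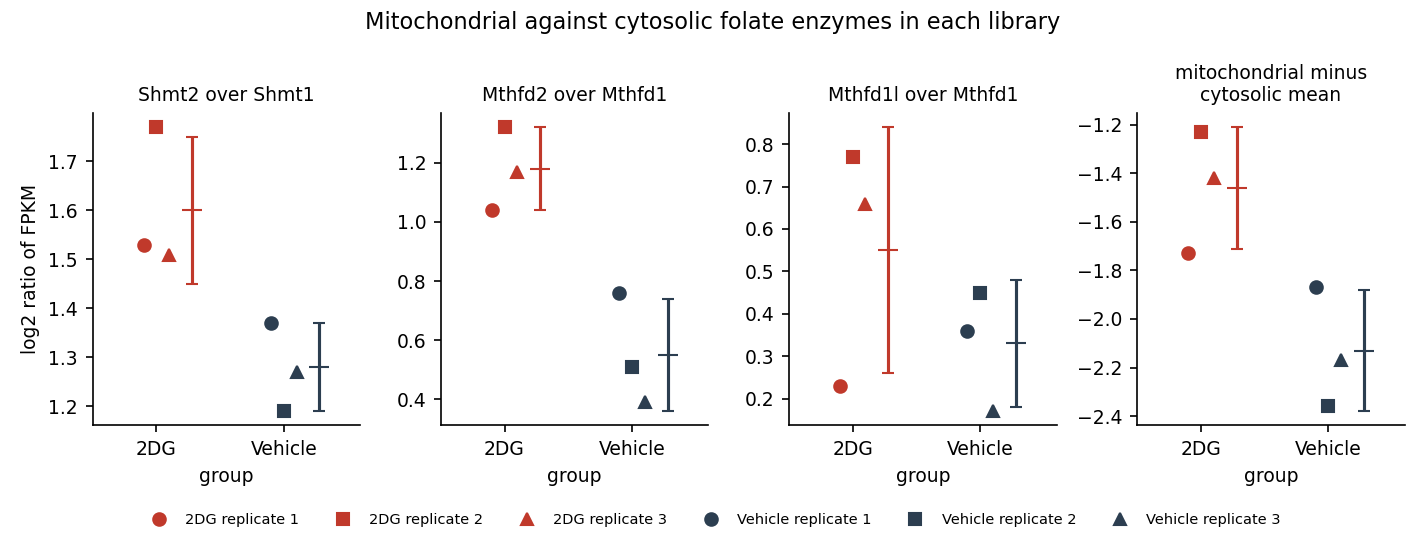
Log2 ratios of FPKM between mitochondrial and cytosolic folate genes in each library (y axes differ between panels), with 2DG left of Vehicle; symbols mark the replicate, and the bar beside each group is its mean with SD (n = 3). The ratios of Shmt2 to Shmt1 and of Mthfd2 to Mthfd1 do not overlap between groups, and the ratio of Mthfd1l to Mthfd1 does.

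The order of levels was similar in both groups except for Psph and the lowest pair. In 2DG libraries it ran, by group mean, from Psat1 (261 FPKM) through Shmt2 (186), Mthfd2 (145), Mthfd1l (94.5), Psph (80.9), Mthfd1 (64.3), Shmt1 (61.1) and Phgdh (49.1) to Aldh1l2 (2.44) and Mthfd2l (1.05). Neighbours overlapped in range for Mthfd1l and Psph and for Mthfd1 and Shmt1. In Vehicle libraries it ran from Psat1 (183 FPKM) through Shmt2 (139), Mthfd2 (95.7), Mthfd1l (81.8), Mthfd1 (65.2), Shmt1 (57.5), Psph (52.7) and Phgdh (38.6) to Mthfd2l (1.19) and Aldh1l2 (0.455). There, Shmt1 and Psph overlapped. Psph thus lay above both cytosolic folate genes in the 2DG libraries and below Mthfd1 in the Vehicle libraries. By mean level over all 6 libraries, Psat1 stood above 96.7% of the 10228 tested loci and Aldh1l2 above 4%.

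Of the 10 genes, 8 had a log2 difference above 0, 6 were higher in all 2DG libraries, and 4 overlapped between groups. The median log2 difference of the 10 genes was 0.38, against -0.01 over all tested loci. It was 0.51 for the serine synthesis genes, 0.41 for the mitochondrial and 0.03 for the cytosolic folate genes. In the fit across all tested loci (limma, Benjamini-Hochberg adjusted p under 0.05), Mthfd2 and Aldh1l2 were past the threshold, 2 of 10. Of all tested loci, 2.72% were past it in either direction and 1.53% in the direction of these 2. Aldh1l2 entered the fit through its 2DG libraries alone. Because the genes were chosen with this contrast known, these calls are a description and not a test. Nothing is read from counts of enzyme genes past the threshold or at an unadjusted p, from these shares or from the 11.9%. The share of all tested loci at an unadjusted p under 0.05 is not given here. The count of 2 changed with single libraries. It was 1 without 2DG replicate 1 (Aldh1l2) and 2 without Vehicle replicate 1 (Psph and Mthfd2). It was 0 without 2DG replicate 2, 2DG replicate 3, Vehicle replicate 2 or Vehicle replicate 3. In each of these 0 fits, 6 had an unadjusted p under 0.05 (limma). With the replicate number as a block the count was also 0, and with a minimum mean of 5 FPKM it was 1 (Mthfd2). It was 5 when small RNA genes were left out of the fit, with Psat1, Psph and Shmt2 added. 2DG replicate 1 was the lowest 2DG library for 8 of the 10 genes, and Vehicle replicate 1 the highest Vehicle library for 6. With replicates 2 and 3 alone, the log2 difference was 0.47 for Phgdh, 0.65 for Psat1, 0.79 for Psph, 0.44 for Shmt2, 0.69 for Mthfd2, 0.30 for Mthfd1l and 1.46 for Aldh1l2, each larger than with all libraries. It was 0.03 for Shmt1, -0.10 for Mthfd1 and 0.11 for Mthfd2l, whose sign turned (-0.06 with all libraries). The part that the Rn45s difference between replicates plays in this was not tested.

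**Figure D3:**
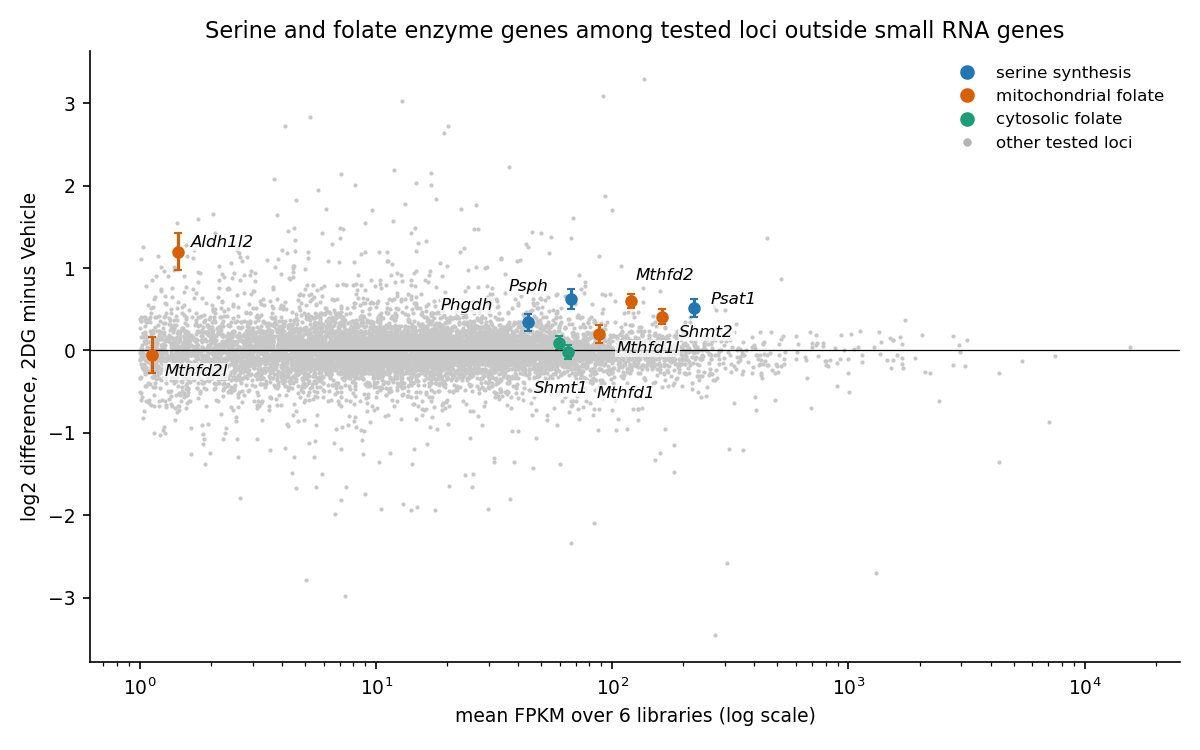
Log2 difference, 2DG minus Vehicle, against mean FPKM over 6 libraries (log axis) for tested loci outside small RNA genes (grey), with the 10 enzyme genes coloured by step and bars for the SE of the fit. Psph, Mthfd2 and Psat1 lie between 0.51 and 0.62 among loci of high level, Shmt1 and Mthfd1 near 0, and Aldh1l2 at 1.20 among loci of low level.

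The authors' use of strand is not given in the sources used here, so reads of genes that overlap on opposite strands cannot be told apart. Psph shares 452 bases with Cct6a, a chaperonin subunit gene listed at 404, 371 and 433 FPKM in 2DG libraries and at 417, 394 and 435 FPKM in Vehicle libraries. Aldh1l2 shares 1056 bases with D10Wsu102e, which was at 28.5, 30.5 and 28.1 FPKM in 2DG libraries and at 27.4, 27.1 and 27.6 FPKM in Vehicle libraries. The level of D10Wsu102e was many times that of Aldh1l2, and the part of shared reads in the Aldh1l2 values was not tested. Shmt1 shares 184 bases with Smcr8, and Shmt2 shares 32 bases with Ndufa4l2, which was below 1 FPKM in every library. Mthfd1 shares 19090 bases with the antisense RNA Gm34868, Mthfd2 shares 2799 bases with Gm43890 on its own strand, and Psat1 shares 556 bases with the pseudogene Gm3329.

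The promoters of the matched mitochondrial and cytosolic pairs are shown because these pairs differed in their values. Each sequence runs 5′ to 3′ from 250 bases before to 50 bases after the RefSeq start (GRCm38.p6), with capitals marking CCAAT and GGGCGG on either strand (ATTGG and CCGCCC on the other), the letters of the CCAAT box and the GC box.
Mthfd2 (chr6:83317555-83317854, minus strand): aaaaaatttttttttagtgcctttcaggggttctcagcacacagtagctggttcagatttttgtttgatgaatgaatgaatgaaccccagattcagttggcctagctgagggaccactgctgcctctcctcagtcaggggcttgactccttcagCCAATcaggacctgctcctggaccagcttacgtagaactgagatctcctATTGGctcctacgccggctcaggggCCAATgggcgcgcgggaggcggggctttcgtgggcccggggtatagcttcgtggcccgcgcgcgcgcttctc
Mthfd1 (chr12:76254982-76255281, plus strand): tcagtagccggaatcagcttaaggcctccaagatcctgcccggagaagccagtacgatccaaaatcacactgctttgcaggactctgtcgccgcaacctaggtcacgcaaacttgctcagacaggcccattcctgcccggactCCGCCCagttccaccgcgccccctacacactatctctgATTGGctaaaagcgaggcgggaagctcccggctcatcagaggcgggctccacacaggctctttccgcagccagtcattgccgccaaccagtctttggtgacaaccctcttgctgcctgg
Shmt2 (chr10:127522395-127522694, minus strand): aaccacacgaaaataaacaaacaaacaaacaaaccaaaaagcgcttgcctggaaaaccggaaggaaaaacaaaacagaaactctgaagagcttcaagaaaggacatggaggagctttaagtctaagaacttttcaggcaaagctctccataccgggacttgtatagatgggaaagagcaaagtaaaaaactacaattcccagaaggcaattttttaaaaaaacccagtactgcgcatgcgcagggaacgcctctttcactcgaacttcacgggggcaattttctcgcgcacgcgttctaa
Shmt1 (chr11:60811216-60811515, minus strand): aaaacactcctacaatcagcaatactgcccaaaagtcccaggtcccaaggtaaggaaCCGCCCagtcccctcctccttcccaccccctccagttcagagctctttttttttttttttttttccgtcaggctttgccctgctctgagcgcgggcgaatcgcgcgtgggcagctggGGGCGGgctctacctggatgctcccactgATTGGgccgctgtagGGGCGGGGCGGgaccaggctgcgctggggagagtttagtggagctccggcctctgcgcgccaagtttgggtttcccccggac
The Mthfd2 window held 3 CCAAT letters and no GGGCGG, the Mthfd1 window 1 of each, the Shmt1 window 1 CCAAT and 4 GGGCGG, with an overlapping pair among them, and the Shmt2 window neither. GC content was 55.7% for Mthfd2, 59.0% for Mthfd1, 42.7% for Shmt2 and 60.7% for Shmt1, against 53.8% over all promoters of the table. These windows were matched for 9 of the 10 genes, all but Aldh1l2. The 9 genes had 10 windows, so the counts of genes stand beside shares of promoters. Of the 9, 6 held CCAAT, which 37.4% of the 32851 promoters of the table hold, and 6 held GGGCGG, which 35.7% hold. Neither TGATGNAA, the core of the element that ATF4 binds with C/EBP factors (3.97% of all promoters), nor CACGTG, the E-box that MYC binds (7.15%), was found on either strand of these windows. That says only that these letters are not in these windows.

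Genes around the pathway were taken from 6 lists and tested in the fit across all tested loci. In that fit, 1.53% of all tested loci were past the threshold and higher with 2DG, and 1.19% were lower. The share of all tested loci at an unadjusted p under 0.05 is not given here. The lists were chosen with earlier results known, and no enrichment is read from their counts. Of 7 tested genes of serine and glycine uptake, 2 rose, 0 fell and 5 did not pass the test (5 higher and 0 lower at an unadjusted p under 0.05, limma). Slc1a4, a transporter of alanine, serine and cysteine, was at 15.6, 17.5 and 13.8 FPKM in 2DG libraries, against 6.77, 6.46 and 7.21 FPKM in Vehicle libraries. Its log2 difference was 1.08 ± 0.11 (SE), with an adjusted p of 0.0054 by limma. It passed with any single library left out (highest adjusted p = 0.045) but not with replicates 2 and 3 alone (adjusted p = 0.11). Slc6a9, a glycine transporter, was at 4.12, 5.19 and 3.16 FPKM in 2DG libraries, against 1.71, 1.56 and 1.83 FPKM in Vehicle libraries. Its log2 difference was 0.91 ± 0.16 (SE, adjusted p = 0.037 by limma). That call was lost without any single library other than 2DG replicate 3 (highest adjusted p = 0.14). It was also lost with replicates 2 and 3 alone (adjusted p = 0.26) and with the replicate number as a block (adjusted p = 0.095). The list's median log2 difference was 0.29, against -0.01 over all tested loci.

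Of 12 tested genes of serine use, transsulfuration and the methionine cycle, 1 rose and 0 fell (1 higher and 0 lower at an unadjusted p under 0.05, limma), with a median of -0.04. The one that rose was Cth, which makes cysteine from cystathionine, the product of serine and homocysteine. Cth was at 18.7, 26.9 and 27.5 FPKM in 2DG libraries, against 5.74, 5.18 and 4.51 FPKM in Vehicle libraries (log2 difference 2.03 ± 0.16, SE, adjusted p = 0.0032 by limma) and passed with any single library left out. Cbs, which makes cystathionine, was below the filter, at a mean of 0.448 FPKM in 2DG and 0.526 FPKM in Vehicle. Among 20 tested genes of the ATF4 and amino acid response, 1 rose, Asns, which makes asparagine, and 0 fell (11 higher and 1 lower at an unadjusted p under 0.05, limma). The median was 0.35. Asns was at 106, 122 and 133 FPKM in 2DG libraries, against 68.0, 47.1 and 48.6 FPKM in Vehicle libraries (log2 difference 1.14 ± 0.16, SE, adjusted p = 0.017 by limma). It lost its call without any single library other than Vehicle replicate 1 (highest adjusted p = 0.075). With the replicate number as a block Asns lost its call too (adjusted p = 0.067 by limma), while Slc1a4 and Cth kept theirs. With replicates 2 and 3 alone, Asns (adjusted p = 0.025 by limma) and Cth (adjusted p = 0.011 by limma) passed. Of the 20, 12 were higher and 1 was lower in all 2DG libraries, and of these Asns alone passed the test. Over all tested loci, 11.9% were higher and 11.8% lower in all 2DG libraries. Atf4 itself averaged 241 FPKM in 2DG and 187 FPKM in Vehicle (adjusted p = 0.23), and Atf3, a stress-induced relative, averaged 1.7 FPKM in 2DG and 5.42 FPKM in Vehicle (adjusted p = 0.053).

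In the other lists no gene passed the test. Of 16 tested genes of cytosolic folate, purine and thymidylate metabolism, 3 were higher and 1 was lower at an unadjusted p under 0.05 (limma), and the median was 0.04. The smallest p-values were those of Slc19a1, the reduced folate carrier, at 45.3, 43.7 and 45.3 FPKM in 2DG libraries and 34.8, 35.2 and 40.5 FPKM in Vehicle libraries (adjusted p = 0.14), and of Mtr, the methionine synthase, at 14.4, 13.4 and 12.8 FPKM in 2DG libraries and 10.5, 11.1 and 11.7 FPKM in Vehicle libraries (adjusted p = 0.16). Of 10 tested genes of mitochondrial serine, glycine and folate handling, 2 were higher and 1 was lower at an unadjusted p under 0.05 (limma), and the median was 0.09. Gcat, which makes glycine from a threonine product and shares its locus with Galr3, was at 20.9, 21.7 and 25.8 FPKM in 2DG libraries, against 30.4, 31.8 and 32.9 FPKM in Vehicle libraries (adjusted p = 0.056). Pck2, a mitochondrial enzyme that makes phosphoenolpyruvate, was at 25.5, 39.8 and 37.9 FPKM in 2DG libraries, against 21.6, 23.1 and 14.6 FPKM in Vehicle libraries (adjusted p = 0.12). Gldc, the decarboxylase of the glycine cleavage system, averaged 0.0473 FPKM in 2DG and 0.0156 FPKM in Vehicle. Of 6 tested genes of glycolysis next to 3-phosphoglycerate, 0 passed the test and 0 had an unadjusted p under 0.05 (limma), and the groups overlapped for each. Pgk1, which makes 3-phosphoglycerate, was at 87.9, 108 and 115 FPKM in 2DG libraries and 104, 100 and 82.2 FPKM in Vehicle libraries. Pgam1, which takes it onward in glycolysis, averaged 13.6 FPKM in 2DG and 12.8 FPKM in Vehicle. Gapdh, a gene of every cell, stood between 0.135 and 1.12 FPKM in the table and was below the filter. Pkm of the same list averaged 1100 FPKM over the 6 libraries. Why Gapdh was listed so low was not tested, and its values are not read as the level of the gene.

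**Figure D4:**
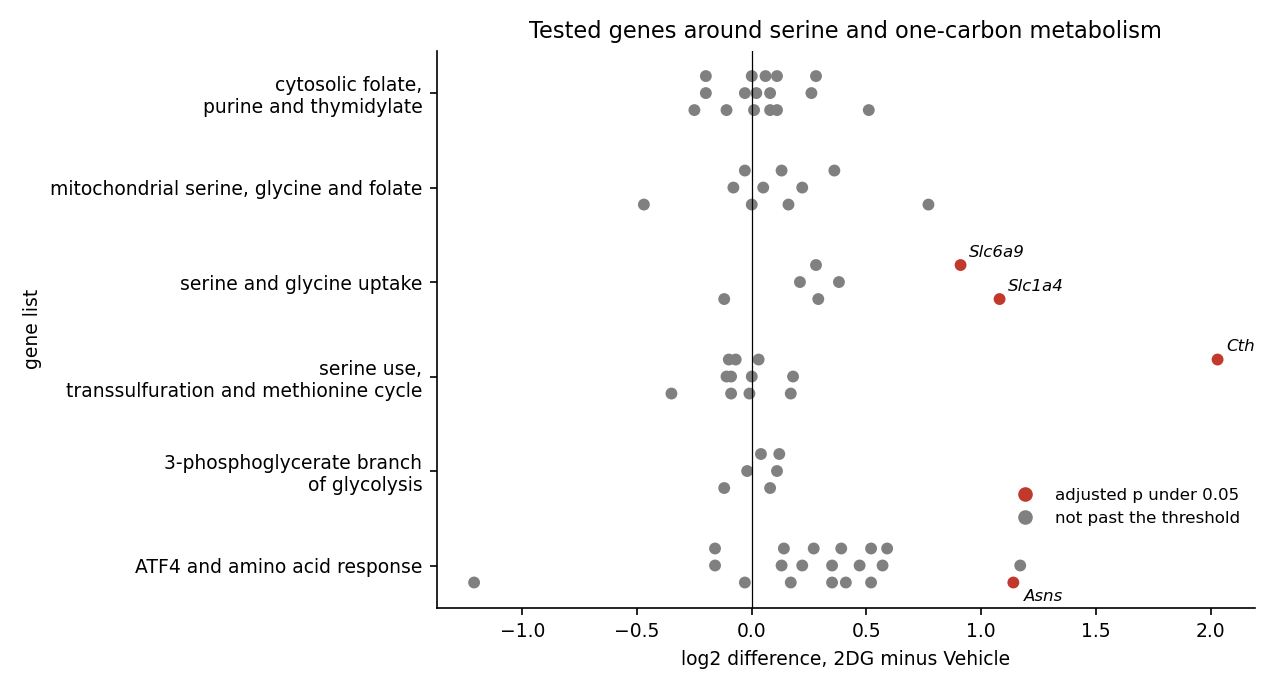
Log2 differences, 2DG minus Vehicle, of the tested genes of 6 lists around serine and folate metabolism; each point is 1 gene, red where it passed the test across all loci and grey where it did not. Slc1a4 (1.08), Slc6a9 (0.91), Cth (2.03) and Asns (1.14) are the 4 that passed, and the glycolysis genes lie near 0.

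The loci whose profile over the 6 libraries was most like that of Phgdh, by Pearson's r of log2(FPKM + 1), were Tpbg (0.997), Iars (0.995), Gtl3 (0.993), Lgals3bp (0.990) and Zfp82 (0.989). Iars encodes the isoleucyl-tRNA synthetase and Tpbg a membrane glycoprotein. For Mthfd2 they were Hpcal1 (0.998), Grk5 (0.996), Evl (0.995), Asns (0.993) and Ltv1 (0.992). Grk5 encodes a kinase of G protein-coupled receptors, Evl an actin regulator and Ltv1 a ribosome assembly factor. These r are the highest of 9243 loci compared over 6 libraries that fall in 2 groups, and all 10 genes named were higher in every 2DG library than in any Vehicle library.

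**Figure D5:**
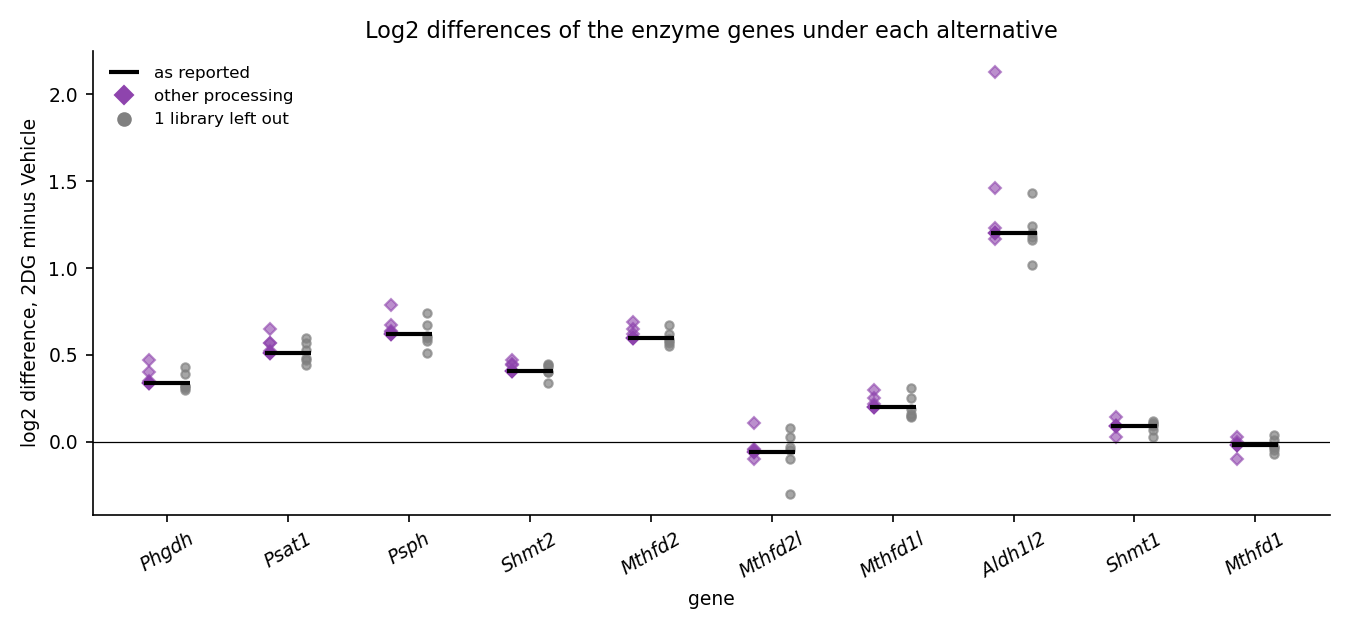
Log2 difference, 2DG minus Vehicle, of each enzyme gene as reported (black bar), under other processing (purple diamonds) and with 1 library left out (grey circles). The 6 genes that were higher in all 2DG libraries stay above 0 in every setting shown. For these 6, leaving out libraries cannot turn the sign, so no stability is read from it. Mthfd2l and Mthfd1 lie on both sides of 0, and Aldh1l2 moves from 1.20 to 2.13 with a pseudocount of 0.1.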

How the data were processed

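Per the submitters' processing notes, the tools were Cuffdiff 2.2.1.3, Cuffnorm 2.2.1.1, Cufflinks 2.2.1.0 and TopHat2 2.1.0, with mm10 as the build. Their settings, the annotation and the use of strand were not given in the sources used here. As deposited, the authors' data are 1 table with an FPKM value per locus and library, scaled across libraries (75th percentiles of 10.9 to 11.6 FPKM), and a status of OK or NOTEST. Whole reads could not be recovered from the steps between low values (13.7% to 22.6% of ratios within 0.05 of the most frequent one).

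The 10228 loci whose mean reached 1 FPKM were fitted on log2(FPKM + 1) with limma 3.58.1 in R 4.3.3 (eBayes with trend, group as the only term). P-values are two-sided and adjusted by Benjamini-Hochberg over all tested loci, with a threshold of 0.05. On simulated data of 10228 loci for 2DG against Vehicle, the code recovered 49.3% of 1.5-fold, 91.0% of 2-fold and 100% of 4-fold changes, with 3.61% of calls false. These shares describe the simulated data and are not the error rate of the calls made on the 6 libraries. With 3 against 3 libraries an exact permutation test cannot go below 0.1. Nothing in the labels says that libraries came from separate animals, so p-values cover only library-to-library spread, possibly technical. FPKM of genes with near-identical copies are uncertain.

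Genes, lists and tests were chosen with earlier results of these data known. Named are all 10 enzymes and, from each list, each gene past the threshold or else the 2 of smallest p; Cbs, Atf4, Atf3 and Gldc were added after their values were seen, and of the glycolysis list Gapdh, Pgk1 and Pgam1 were named in any case. The 5 loci most like Phgdh and Mthfd2 leave out predicted and small RNA genes. CCAAT and GGGCGG were added to the motif search after the other motifs gave no match. The planned comparison of protein sequences was not made. Gene coordinates come from GENCODE M21 (GRCm38, which mm10 denotes). Figures were drawn with matplotlib 3.10.9.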

Additional observations from a re-analysis of the deposited data

How the results depend on the processing

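Of all tested loci, 156 were higher and 122 lower with 2DG; the counts were 100 and 65 with no filter on low values, 262 and 214 with small RNA genes left out, 247 and 199 with robust eBayes, 11 and 6 with replicates 2 and 3 only, and 37 to 87 and 14 to 55 with 1 library left out. Of the 10 enzyme genes, 2 were past the threshold; the count was 1 with no filter or with a minimum mean of 5 FPKM, which leaves out Aldh1l2 and Mthfd2l. It was 5 with quantile normalization, with equal sums outside small RNA genes, with small RNA genes left out and with robust eBayes. It was 0 with replicates 2 and 3 only (7 at an unadjusted p under 0.05, limma) and 0 to 2 with 1 library left out. These genes were chosen with the contrast known, and nothing is read from their counts at an unadjusted p. The pathway lists had 4 genes higher, 3 with a minimum mean of 5 FPKM, 2 with replicates 2 and 3 only and 2 to 3 with 1 library left out. The count was 5 with equal sums or robust eBayes (Sesn2 added) and 6 with small RNA genes left out (Sesn2 and Chac1 added). With no filter it was 4, with Slc7a11 in place of Slc6a9. The lists had 0 lower (limma), but 1 (Atf3) with a pseudocount of 0.1, quantile normalization or equal sums, 2 (Atf3 and Gcat) with small RNA genes left out or robust eBayes, and 0 to 1 with 1 library left out. The cause of these changes was not tested, and neither was the part of the smaller number of libraries in them. Ratio differences between mitochondrial and cytosolic genes kept their sign under the alternatives run. For Shmt2 to Shmt1, Mthfd2 to Mthfd1 and the mean of all 5 against 2, the groups did not overlap. Leaving out a library could thus not turn their sign, and the replicate block leaves a difference of means as it is. The ratio of Mthfd1l to Mthfd1, which overlapped, differed by 0.12 to 0.39 with 1 library left out. For the mean of all 5 against 2 the value was 0.67, 0.37 with the 3 mitochondrial genes of at least 5 FPKM, and 0.56 to 0.81 with 1 library left out.

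Titles give both groups the same 3 numbers: 17, 42 and 43 for replicates 1, 2 and 3. Whether a shared number marks a shared source was not given. Deviations of same-number libraries from their group means correlated at -0.05, 0.38 and -0.20. Of the 2DG libraries replicate 2 alone correlated best with its own number, and the numbers were not taken as pairs. With 3 libraries per group these correlations cannot exclude pairing. Replicate 1 of both groups did share the Rn45s signal and the lowest FPKM sums (1471759 in 2DG and 1469420 in Vehicle, against 1808447 to 1958739 in the rest). With the replicate block, 57 loci were higher and 44 lower, 2 pathway genes were higher (Slc1a4 and Cth), the calls of Asns (adjusted p = 0.067, limma) and Slc6a9 (0.095) were lost, and 0 enzyme genes were past the threshold (6 at an unadjusted p under 0.05, limma).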
